A study of Homo sapiens with 6 samples.

Results

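The genes described here code for the proteins that license origins of DNA replication and for those that run the replication fork. They comprise the MCM helicase, the origin recognition complex, the loading factors, the firing kinase, CDC45 and GINS, the sliding clamp and its loader, the replicative polymerases, the single-strand binding protein, the enzymes that finish Okazaki fragments and the enzymes that supply nucleotides. The list of 47 genes was matched by symbol to the gene column of the array table, in which the origin recognition genes carry the older names ORC1L to ORC6L and CDC45 is called CDC45L. Of these, 46 genes had a row, out of 37879 rows in all, and POLD2 was not analysed here. A gene was kept when at least 3 arrays detected it above the negative control beads, at a detection p under 0.05. This left 43 of the replication genes and 13285 rows in all.

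All 6 samples were total RNA of HEK293T cells, a human embryonic kidney line that expresses the large T antigen of SV40. Control cells (n = 3) received the empty vector, and Stau1 cells (n = 3) received a plasmid for Stau155-FLAG, the 55-kDa isoform of the RNA-binding protein Staufen1 with a FLAG tag. Every culture, controls included, was then held in prometaphase with nocodazole, a drug that depolymerizes microtubules, at 50 ng/ml for 15 h per the labels. The methods of the study state more hours than the labels. The comparison asks whether the level of each transcript differed when Stau155-FLAG was expressed. Cells in prometaphase have passed S phase, so in arrested cells the transcripts of these genes were measured after replication and not during it. The share of cells in each culture that were not arrested is not given in the labels. No label says whether the replicates came from separate cultures, so the p-values measure only the spread between these arrays, and how many cells took up the plasmid is not given in the sources used here.

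Replication is licensed in late mitosis and G1. The origin recognition complex marks the origin, CDC6 and CDT1 bring the MCM2 to MCM7 ring onto it, and geminin (GMNN) holds CDT1 in check until the next mitosis. At the start of S phase the kinase CDC7 with its activator DBF4 allows CDC45 and GINS to join the ring, which turns it into the active helicase. Primase with polymerase alpha then starts each strand, polymerases epsilon and delta extend the leading and the lagging strand with the clamp PCNA, and RPA covers the unwound single strands. Many of these genes are known targets of E2F transcription factors, which RB proteins restrain and which large T antigen frees from RB.

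No replication gene passed the test between Stau1 and control cells. With limma and Benjamini-Hochberg adjustment over the 13285 kept rows, 0 of the 43 genes had an adjusted p under 0.05, beside 0% of all kept rows, and the adjusted p of each was 0.999. At an unadjusted p under 0.05, 2 of the 43 genes were higher with Stau1, POLE and CDT1, beside 2.41% of all kept rows. None of the 43 was lower at that p, beside 1.32% of all kept rows. In 2 genes, POLE and POLA1, every Stau1 array lay above every control array, beside 4.51% of all kept rows, and in no gene did every Stau1 array lie below, beside 3.4%. An exact two-sided permutation test of 3 arrays against 3 cannot give a p under 0.1. By the methods' t-test, run on the same values as limma, 0 genes passed the 2-fold threshold, beside 0% of all kept rows. Without the fold threshold only POLE had a p under 0.05 by that test. The 2 genes in each of these counts make 4.65% of the 43, so neither count sets the replication genes apart from the rest of the array.

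The differences were small as well as uncalled. On the log2 intensity scale the 43 differences between the group means ran from -0.25 (PRIM2) to 0.36 (CDT1), with a median of 0.04, beside -0.0021 over all kept rows. The mean was higher with Stau1 in 31 of the 43 genes (72.1%), beside 49.4% of all kept rows, and that number was 25 without control array 1, 27 without control array 2 and 35 without control array 3. For 38 genes (88.4%) the whole 95% limma interval of the difference lay within 1.5-fold in either direction, beside 86.7% of all kept rows. It lay within 1.25-fold for 21 genes (48.8%), beside 21.9%, and within 2-fold for each of the 43. Brightness differs between these sets, since 29 of the 43 lie in the top quartile of kept rows by brightness. The median absolute difference was 0.065 in that quartile, 0.064 in the 43 genes and 0.093 over all kept rows. The 5 genes whose interval reached past 1.5-fold were CDT1, POLE, RFC1, ORC4L and PRIM2. The 95% intervals thus stayed within 1.5-fold for most replication genes, a share near that of all kept rows. Like the p-values, they measure only the spread between these arrays. Smaller changes could not be told from 0 with 3 arrays a group. Since RNA of a whole culture was measured, fewer cells at a stage and less RNA per cell cannot be told apart.

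**Figure D1:**
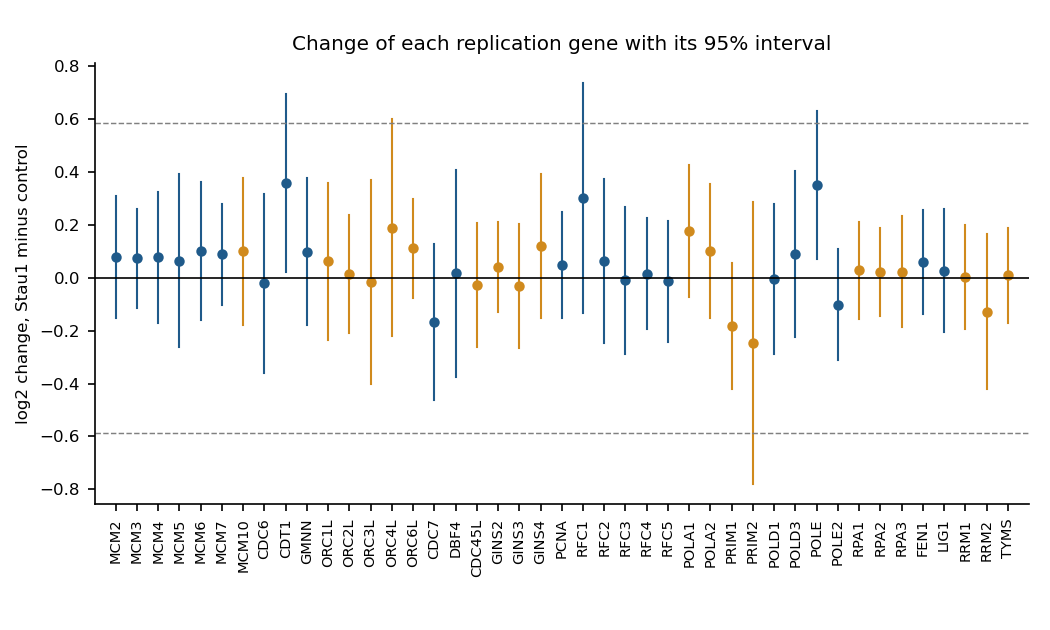
Difference of the mean log2 intensity, Stau1 minus control, for the 43 kept replication genes (points) with the 95% limma interval (vertical lines), ordered by role and with the colour alternating between neighbouring roles. The dashed lines mark 1.5-fold in either direction, and 38 of the intervals lie between them, while only those of POLE and CDT1 lie wholly above 0.

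Sequences near the start sites are shown because an E2F-type motif is what many of these genes have in common, although the list is one of protein functions. The motif was searched as TTTCCCGC, TTTGGCGC, TTTCGCGC or TTTGCCGC on both strands, in RefSeq promoter windows of 250 bases before to 50 bases after each start (GRCh38.p14). Of the 46 genes, 40 had a window, and 21 of these (52.5%) held a match, beside 6.76% of 8812 genes with a kept row and 3.99% of 27305 genes in all. Counted by windows of that same length, the share was 41.2%, beside 5% and 3.31%. The motif CCAAT, on both strands, was in a window of 57.5% of the 40 genes, beside 43.7% and 39.7%. A match is a run of letters and does not show that a factor binds. The stretches of 8 genes are given 5′ to 3′ on the strand of the gene, each upstream of a start, with the match in capitals. They are those of 3 helicase subunits, of CDT1 and CDC7, of the clamp, and of the catalytic subunits of polymerases alpha and epsilon. In MCM6 the match shares bases with a match to TTTCGCGC on the other strand, and the window holds a further pair of that kind.
MCM3, chr6:52284892-52284932, minus strand: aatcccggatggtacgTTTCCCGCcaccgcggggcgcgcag
MCM6, chr2:135876571-135876611, minus strand: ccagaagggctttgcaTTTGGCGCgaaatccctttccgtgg
MCM7, chr7:100101560-100101600, minus strand: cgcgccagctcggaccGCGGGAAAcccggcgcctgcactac
CDT1, chr16:88803738-88803778, plus strand: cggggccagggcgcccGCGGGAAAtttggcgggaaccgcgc
CDC7, chr1:91501028-91501068, plus strand: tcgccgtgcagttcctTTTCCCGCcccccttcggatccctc
PCNA, chr20:5126657-5126697, minus strand: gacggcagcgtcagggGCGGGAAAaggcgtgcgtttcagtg
POLA1, chrX:24693765-24693805, plus strand: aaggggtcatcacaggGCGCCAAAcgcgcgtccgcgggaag
POLE, chr12:132687343-132687376, minus strand: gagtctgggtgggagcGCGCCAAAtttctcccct

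The clearest difference was in POLE, the catalytic subunit of the leading-strand polymerase epsilon. Its log2 intensity was 8.82, 8.66 and 8.995 on control arrays 1 to 3 and 9.15, 9.09 and 9.29 on Stau1 arrays 1 to 3. All Stau1 arrays lay above all control arrays, with a gap of 0.09 between control array 3 and Stau1 array 2. The means differed by 0.35 (SE 0.13, 95% interval 0.07 to 0.63), or 1.28-fold, with an unadjusted limma p of 0.0177 and an adjusted p of 0.999. POLE2, the second subunit of the same polymerase, differed in the opposite direction. It measured 10.54, 10.71 and 10.64 on the control arrays and 10.48, 10.58 and 10.52 on the Stau1 arrays, a difference of -0.10 (SE 0.10, limma unadjusted p = 0.315, adjusted p = 0.999), and the groups overlapped. The promoter window of POLE2 also held an E2F-type match.

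CDT1, which escorts the MCM ring to the origin, had the largest difference of the 43 genes. Its log2 intensity was 10.68, 10.27 and 11.06 on the control arrays and 10.96, 11.09 and 11.02 on the Stau1 arrays. The Stau1 arrays were close to each other, control arrays 1 and 2 lay below them, and control array 3 lay among them. The difference was 0.36 (SE 0.16, 95% interval 0.02 to 0.69), or 1.28-fold, at an unadjusted limma p of 0.0398. Without control array 2, the lowest of the 6, the difference was 0.16 at an unadjusted limma p of 0.241. Its inhibitor GMNN averaged 11.17 ± 0.29 (SD, n = 3) in control and 11.27 ± 0.07 in Stau1 cells, a difference of 0.10. CDC6, the ATPase that works with CDT1, averaged 6.43 ± 0.20 and 6.41 ± 0.08, a difference of -0.02. CDC6 was dim on every array, with detection p from 0.00395 to 0.0119.

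POLA1, the catalytic subunit of polymerase alpha, was the other gene whose groups did not overlap. It measured 9.18, 9.38 and 9.42 on the control arrays and 9.44, 9.54 and 9.53 on the Stau1 arrays. The difference was 0.18 (SE 0.12, 95% interval -0.07 to 0.43) at an unadjusted limma p of 0.150, and only 0.02 separated the highest control array from the lowest Stau1 array. The accessory subunit POLA2 averaged 11.25 ± 0.25 in control and 11.35 ± 0.03 in Stau1 cells, a difference of 0.10.

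Primase makes the RNA primer within the same complex, and both of its subunits had lower means with Stau1. PRIM1, the catalytic subunit, measured 10.37, 10.48 and 10.38 on the control arrays and 10.09, 10.41 and 10.18 on the Stau1 arrays. Stau1 arrays 1 and 3 were the lowest of the 6, and Stau1 array 2 lay among the controls. The difference was -0.18 (SE 0.11, limma unadjusted p = 0.122, adjusted p = 0.999), the lowest p of any replication gene that was lower with Stau1. PRIM2, the large regulatory subunit, measured 8.49, 7.34 and 7.43 on the control arrays and 7.48, 7.41 and 7.63 on the Stau1 arrays. Its difference of -0.25 (SE 0.25, limma unadjusted p = 0.334, adjusted p = 0.999) rested on control array 1, and without that array it was 0.12 in the other direction. PRIM2 is uncertain for another reason, since the table holds a further row under the older name PRIM2A and RefSeq lists a pseudogene copy, PRIM2BP.

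The replicative helicase is a ring of MCM2 to MCM7, and all of its 6 subunits had slightly higher means with Stau1, by 0.06 to 0.10, none of them past the test. MCM2 measured 10.95, 10.80 and 11.11 on the control arrays and 10.90, 11.09 and 11.10 on the Stau1 arrays. MCM5 measured 10.89, 10.51 and 11.28 against 10.93, 10.98 and 10.95. The control arrays of MCM5 thus spanned 1.71-fold and its Stau1 arrays 1.04-fold, and the whole Stau1 group lay inside the control range. MCM6 measured 13.00, 13.12 and 13.58 against 13.39, 13.32 and 13.29, with the same nesting. MCM3 averaged 12.58 ± 0.12 in control and 12.65 ± 0.05 in Stau1 cells, MCM4 11.45 ± 0.22 and 11.53 ± 0.11, and MCM7 12.09 ± 0.11 and 12.18 ± 0.07 (SD, n = 3). Control array 3 was the highest of the 6 arrays for 5 of the 6 subunits, the exception being MCM7, and control array 1 or 2 was the lowest for each of the 6. The range over the controls was wider than that over the Stau1 arrays for every subunit. Without control array 3 the median difference of the ring was 0.17, and without control array 1 it was 0.07, with MCM6 then at -0.02. Without control array 2, MCM4 and MCM5 were lower with Stau1, at -0.03 and -0.13. MCM10, a separate protein that helps the ring to start unwinding, measured 9.67, 9.92 and 10.16 on the control arrays and 10.04, 10.07 and 9.94 on the Stau1 arrays, the same arrangement as the ring.

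**Figure D2:**
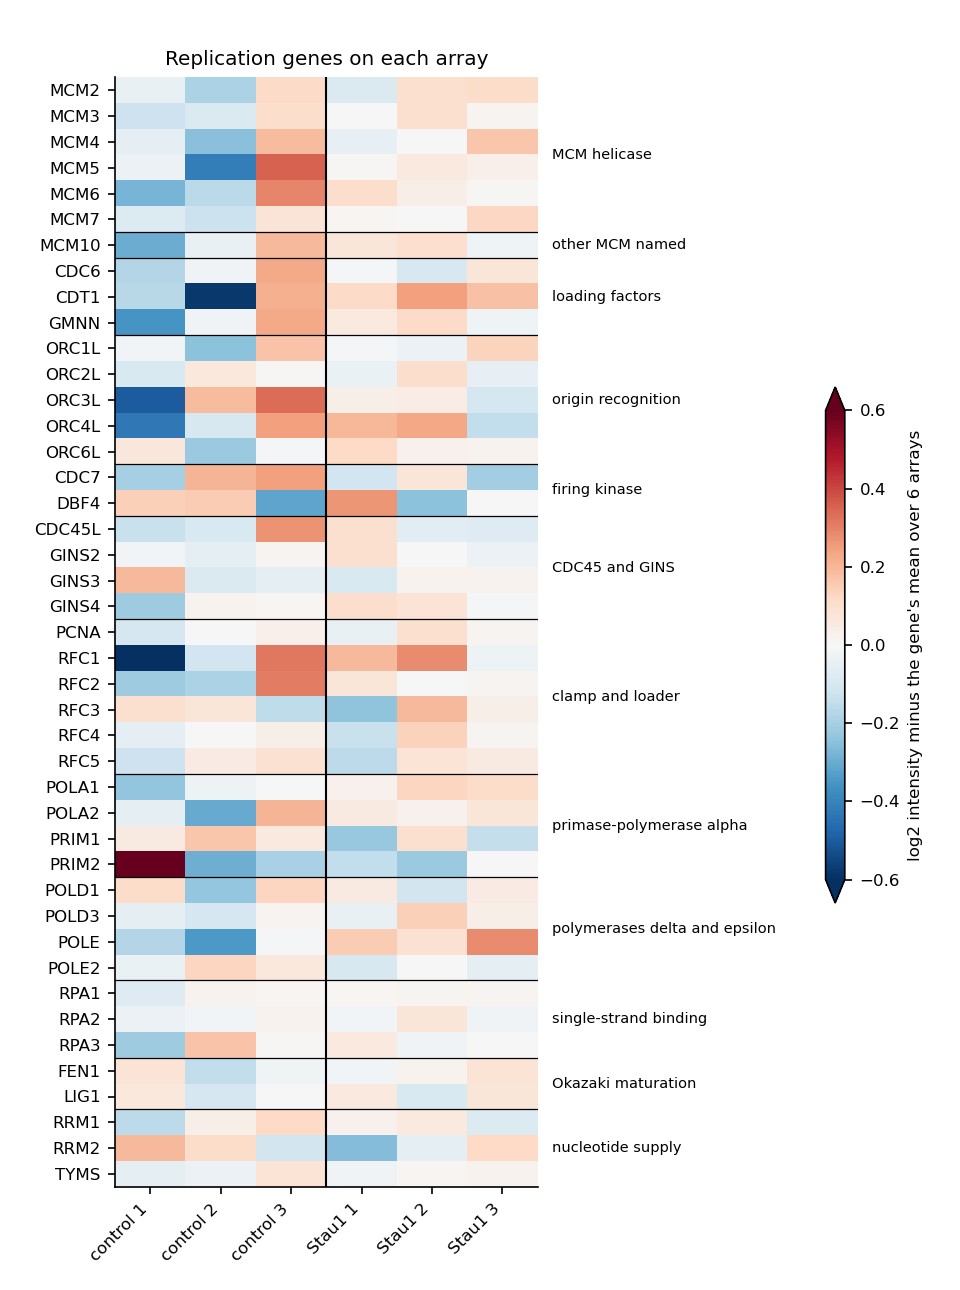
Log2 intensity of each kept replication gene on each array minus its mean over the 6 arrays, with genes in rows by role and arrays in columns (red above the mean, blue below; the scale ends at 0.6 in either direction). Control array 3 is mostly red and control arrays 1 and 2 mostly blue, while the Stau1 arrays are paler, and PRIM2 on control array 1 lies past the end of the scale.

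The origin recognition complex showed no shared direction past the test. ORC6L, the smallest subunit, measured 13.48, 13.19 and 13.40 on the control arrays and 13.53, 13.44 and 13.43 on the Stau1 arrays. Its difference was 0.11 (SE 0.09, limma unadjusted p = 0.226, adjusted p = 0.999), and control arrays 1 and 3 lay within or next to the Stau1 range. ORC3L varied most among the controls, at 9.03, 9.72 and 9.86, against 9.56, 9.57 and 9.43 with Stau1. This made its difference -0.02 with all arrays but -0.27 without control array 1. ORC4L averaged 6.58 ± 0.34 and 6.77 ± 0.21 (SD, n = 3), with the widest interval of the complex, -0.22 to 0.60. ORC1L averaged 8.77 ± 0.21 in control and 8.83 ± 0.09 in Stau1 cells, and ORC2L 10.25 ± 0.08 and 10.26 ± 0.09. ORC5L was detected on 2 arrays and was not tested.

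The kinase that fires origins pairs the catalytic subunit CDC7 with DBF4. CDC7 measured 9.57, 9.98 and 10.02 on the control arrays and 9.66, 9.84 and 9.56 on the Stau1 arrays. Control arrays 2 and 3 were the highest of the 6, control array 1 lay with the lowest Stau1 array, and the difference was -0.17 (SE 0.14, limma unadjusted p = 0.244, adjusted p = 0.999). Without control array 1 it was -0.31 at an unadjusted limma p of 0.0184. DBF4 was dim, with detection p up to 0.025, and averaged 6.07 ± 0.27 and 6.08 ± 0.25 (SD, n = 3).

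CDC45L and the GINS genes complete the active helicase. CDC45L averaged 12.48 ± 0.22 in control and 12.45 ± 0.10 in Stau1 cells, with control array 3 the highest of the 6. GINS2 averaged 12.65 ± 0.04 and 12.69 ± 0.07, and GINS3 10.40 ± 0.16 and 10.37 ± 0.07. GINS4, which is also on the study's list of transcripts bound by Stau155-FLAG, measured 8.57, 8.80 and 8.79 on the control arrays and 8.89, 8.86 and 8.77 on the Stau1 arrays. Its difference was 0.12 (SE 0.13, limma unadjusted p = 0.356, adjusted p = 0.999), and Stau1 array 3 lay among the controls. GINS1 was detected on 0 of the 6 arrays, with detection p from 0.0619 to 0.31, and MCM8, a paralog of the ring subunits, on 1. The rows of MCM8 and ORC5L average several probes and carry a combined detection p, so their failing the filter does not show that the transcripts were low.

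The clamp PCNA averaged 11.07 ± 0.07 in control and 11.12 ± 0.07 in Stau1 cells (SD, n = 3), a difference of 0.05 with a 95% interval of -0.15 to 0.25. The loader that opens it is made of RFC1 to RFC5. RFC1, its large subunit, measured 8.02, 8.56 and 8.98 on the control arrays and 8.87, 8.95 and 8.64 on the Stau1 arrays. The controls spanned 1.95-fold, from the lowest to the highest of the 6 arrays. The difference was 0.30 (SE 0.20, limma unadjusted p = 0.159, adjusted p = 0.999), 0.53 without control array 3 and 0.05 without control array 1. RFC2 averaged 9.25 ± 0.29 and 9.31 ± 0.04, with control array 3 again the highest. RFC3 averaged 10.00 ± 0.14 and 9.99 ± 0.22, RFC4 11.22 ± 0.05 and 11.23 ± 0.14, and RFC5, detected on 5 arrays, 10.81 ± 0.12 and 10.79 ± 0.13. The other four loader subunits thus differed by no more than 0.06 in their means.

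Polymerase delta extends the lagging strand. POLD1, its catalytic subunit, averaged 9.16 ± 0.20 in control and 9.16 ± 0.09 in Stau1 cells (SD, n = 3), a difference of -0.0047, and POLD3 averaged 6.99 ± 0.06 and 7.08 ± 0.09. RPA1 and RPA2 varied little. The median range of the RPA genes over the arrays of a group, 0.10 in control and 0.08 in Stau1 cells, was the smallest among the roles. RPA3 alone spanned 0.38 in control and 0.08 in Stau1 cells. RPA1 averaged 11.56 ± 0.05 and 11.59 ± 0.002, RPA2 12.77 ± 0.03 and 12.79 ± 0.05, and RPA3 12.76 ± 0.19 and 12.78 ± 0.04, so that the 3 differences were 0.02 to 0.03. The flap nuclease FEN1 averaged 11.67 ± 0.11 and 11.73 ± 0.05, and the ligase LIG1, which seals Okazaki fragments, 9.86 ± 0.08 and 9.89 ± 0.09.

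Ribonucleotide reductase makes the deoxynucleotides. RRM2, its cell-cycle-regulated small subunit and the other gene here on the study's list of bound transcripts, measured 9.39, 9.31 and 9.08 on the control arrays and 8.94, 9.14 and 9.32 on the Stau1 arrays. The groups overlapped, and the difference was -0.13 (SE 0.14, limma unadjusted p = 0.358, adjusted p = 0.999). Its partner RRM1 averaged 12.62 ± 0.14 and 12.62 ± 0.07 (SD, n = 3), a difference of 0.0018. TYMS, the thymidylate synthase, averaged 12.00 ± 0.07 and 12.01 ± 0.02, a difference of 0.008.

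**Figure D3:**
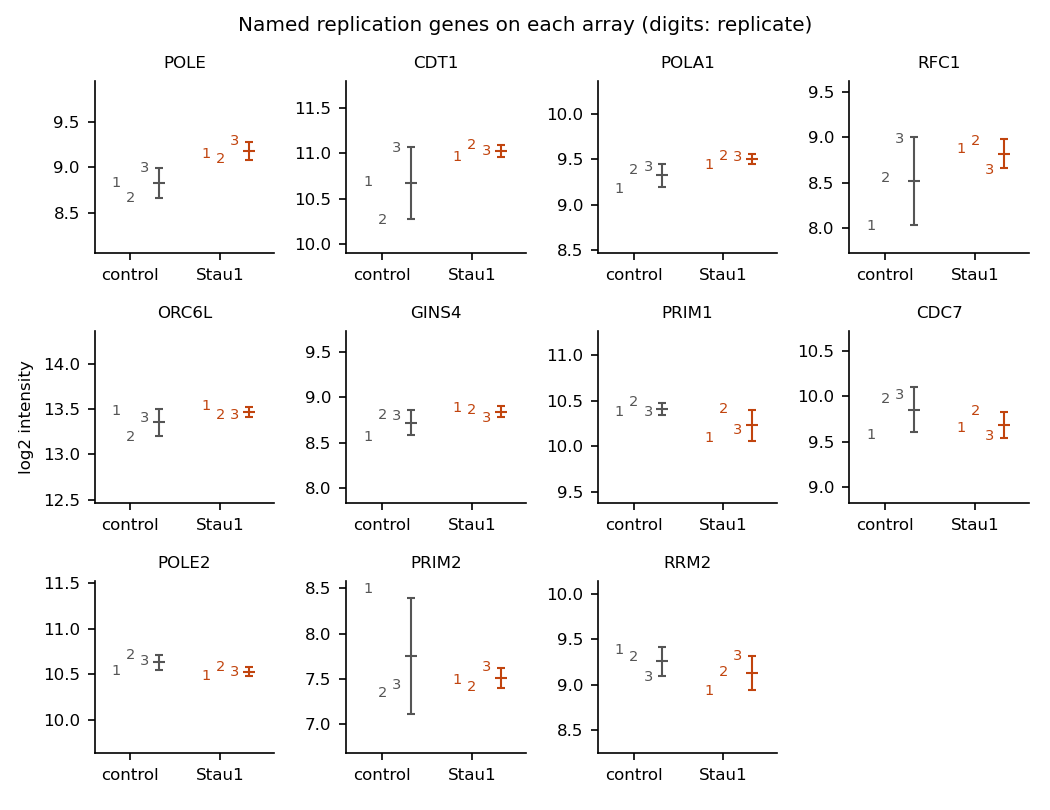
Log2 intensity of 11 replication genes on each array, with digits giving the replicate, and the mean ± SD (n = 3) at the right of each group; each panel spans the same height on the log2 axis but its own range of values. In POLE and POLA1 every Stau1 array lies above every control array, and in PRIM2 control array 1 stands apart from the other five.

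The replication genes shared a pattern across the arrays that did not follow the groups. After each gene's mean over the 6 arrays was taken off, the median over the 43 genes was -0.08, -0.06 and 0.08 on control arrays 1 to 3 and 0.01, 0.04 and 0.02 on Stau1 arrays 1 to 3. Over all kept rows the same medians lay between -0.002 and 0.0028, as quantile normalization brings about. Control arrays 1 and 2 thus lay below every Stau1 array and control array 3 above every one. Of the 43 genes, 20 (46.5%) had their highest value on control array 3, beside 14.8% of all kept rows. In 34 genes (79.1%) the lowest value was on control array 1 or 2, beside 45.5% of all kept rows. The genes above their own mean numbered 10, 13 and 35 of 43 on the control arrays and 23, 30 and 27 on the Stau1 arrays. With cyclic loess in place of quantile normalization the first of these shares was 48.8%, beside 16.6%, and with median scaling it was 86%, beside 57.1%. The median SD of a gene was 0.16 in control and 0.07 in Stau1 cells, beside 0.17 and 0.12 over all kept rows. The SD was higher in control for 32 of the 43 genes (74.4%), beside 68.4% of all kept rows and 74.4% of the rows in the top quartile of brightness, to which 29 of the 43 belong.

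**Figure D4:**
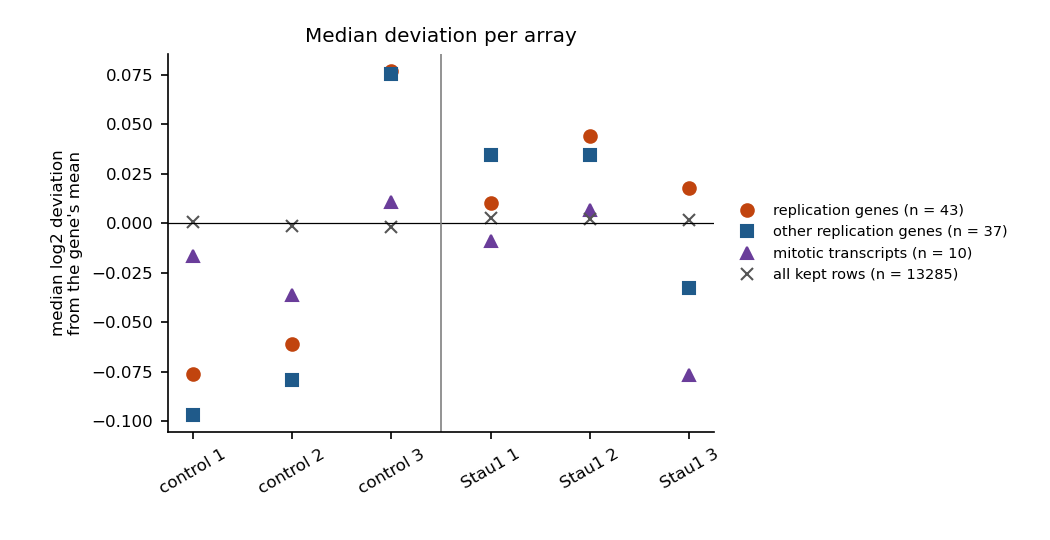
Median deviation of log2 intensity from each gene's mean over the 6 arrays, per array, for the 43 replication genes, 37 other replication genes, 10 mitotic transcripts and all 13285 kept rows. Both replication lists lie lowest on control arrays 1 and 2 and highest on control array 3, and all kept rows lie near 0 on every array.

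The array medians were also taken for genes with and without the promoter motif. In the 19 kept genes with an E2F-type match, such as MCM3, MCM6, CDT1 and PCNA, the array medians were -0.10, -0.06 and 0.08 in control and 0.01, 0.04 and 0.02 in Stau1 cells. In the 18 kept genes with a window but no match, such as MCM10, RFC1 and RRM1, they were -0.07, -0.07 and 0.08, then 0.02, 0.02 and 0.0097. The median difference between the groups was 0.05 with a match and 0.01 without. Among the remaining kept rows, the 576 with a match had array medians of -0.02, -0.02 and 0.02 in control and 0.01, 0.02 and 0.01 in Stau1 cells, and the 8229 without one had -0.0046, 0.0018 and 0.0041, then -0.0013, 0.0022 and 0.0016. Among other genes that act at the fork, described further on, the 8 with a match had -0.23, -0.11 and 0.11 in control and 0.01, 0.12 and 0.0019 in Stau1 cells. The 22 such genes without a match had -0.06, -0.09 and 0.06, then 0.04, -0.03 and -0.04. The median difference between the groups was 0.12 for those 8 genes and -0.01 for those 22. Genes with a match thus lay lower on control array 1 and higher on control array 3 than those without in each of these sets, by little among the 43. On control array 2 they lay lower in each set but the 43. The highest value was on control array 3 in 47.4% of the 43 with a match and 50% of those without. These shares were 25% and 13.6% in the other genes at the fork, and 18.1% and 15.7% in the remaining kept rows. None of these differences was tested.

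Some measures of array quality moved with the pattern, and others did not. The median standard error over the beads of a replication gene, as a percentage of its intensity, was 4.42%, 3.91% and 2.86% on control arrays 1 to 3. It was 3.55%, 3.16% and 3.3% on Stau1 arrays 1 to 3, so that the order was the reverse of the array medians of these genes. The percentage is taken of the intensity of the same genes, so these orders are not independent. In the top quartile of kept rows by brightness this error was likewise highest on control array 1 (3.92%) and lowest on control array 3 (2.79%). There Stau1 array 2 (3.03%) stood above Stau1 array 3 (2.93%), unlike in the replication genes. Between 49.5% and 51.8% of the rows in that quartile lay above their mean on each array. Control array 1 also had the fewest rows detected (12730) and control array 3 the most (13469). Stau1 array 3 had fewer rows detected (12951) than Stau1 array 1 (13270), against the order of their medians in the replication genes. Of the replication genes with a row, 44 were detected on control array 1 and 44 on control array 3. The part of array quality in the pattern was not tested. Over all samples the median intensity lay between 82.96, on Stau1 array 1, and 102.2, on control array 3. A row rested on a median of 40 to 41 beads. STAU1, the gene on the plasmid, averaged 11.32 in control and 11.47 in Stau1 cells, with groups that did not overlap (limma adjusted p = 0.999). The row of STAU1 averages several probes, so the isoform on the plasmid was not read alone. The 10 transcripts of mitosis, among them CCNB1, CDC20 and PLK1, were detected on all 6 arrays. Their summed intensity before normalization, which also carries the brightness of each array, was 31500 to 49680 in control and 37650 to 42820 in Stau1 cells. After normalization their median log2 difference was -0.02, with 3 higher and 7 lower with Stau1. Only CENPF had an unadjusted limma p under 0.05 (difference -0.36, unadjusted p = 0.03, adjusted p = 0.999). Of the 5 transcripts typical of HEK293 cells, 4 were detected on all arrays, with PAX2 on 1. Of 10 markers of other cell types, 8, among them PTPRC, ALB and HBB, were detected on none, while CDX2 and COL1A1 were detected on all 6.

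Leaving out 1 array at a time showed how far the counts depended on the control arrays. Without control array 3, 5 replication genes had an unadjusted limma p under 0.05, namely CDT1, MCM6, POLA2, POLE and RFC1, but so had 12.7% of all kept rows, beside 11.6% of the 43. That omission gave the lowest adjusted p of any replication gene, 0.0973 for CDT1. Without control array 1 the count was also 5, namely CDC7, CDT1, ORC3L, ORC6L and POLE, or 11.6% beside 4.14% of all kept rows, and CDC7 and ORC3L were lower with Stau1. Without control array 2, and without Stau1 array 3, no replication gene reached that p, beside 2.34% and 1.79% of all kept rows. Without Stau1 array 1 it was POLE alone (2.33%, beside 2.97% of all kept rows), and without Stau1 array 2 it was POLE and PRIM1 (4.65%, beside 3.21%). POLE was the gene named most often, in 4 of the 6 omissions, and 0 of the 43 genes passed the adjusted threshold in any of them. The number whose groups did not overlap ran from 3 without control array 2 to 15 without control array 3, beside 14.1% and 29.1% of all kept rows. It was 7 without control array 1 and 4 without Stau1 array 2, beside 18.1% and 17.7%.

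**Figure D5:**
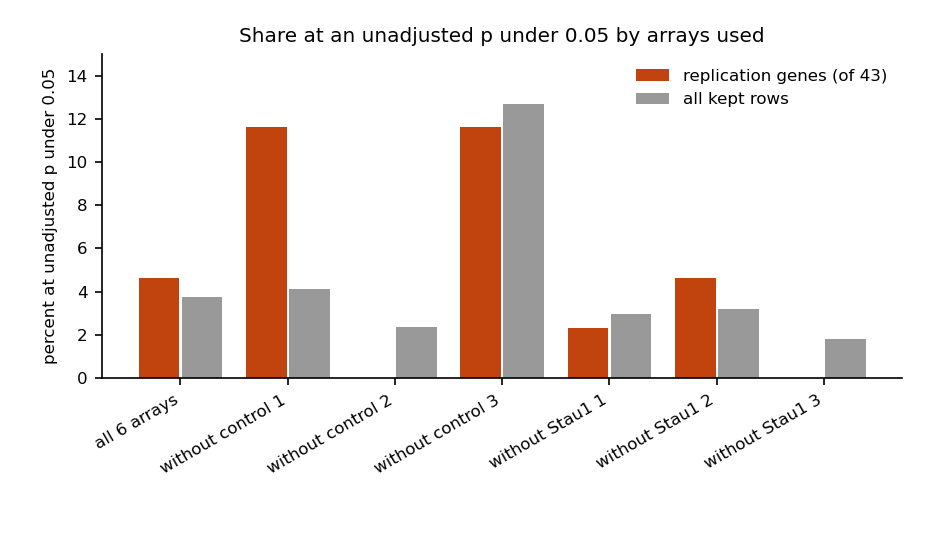
Percentage of the 43 replication genes (orange) and of all 13285 kept rows (grey) with an unadjusted limma p under 0.05, for all 6 arrays and with each array left out in turn. The replication genes stand at 11.6% without control array 1, beside 4.14% of all kept rows, and at 11.6% without control array 3, beside 12.7%.

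A wider list of genes that act at the fork was examined beside the 43: 41 had a row and 37 were kept. With limma, 0 of these 37 had an adjusted p under 0.05, and 3 had an unadjusted p under 0.05, 2 higher with Stau1 (5.41%, beside 2.41% of all kept rows) and 1 lower (2.7%, beside 1.32%). The groups did not overlap in 3 genes that were higher, TIMELESS, LRWD1 and DNMT1 (8.11%, beside 4.51%), and in 1 that was lower, DNA2 (2.7%, beside 3.4%). DNMT1, the methyltransferase that copies DNA methylation onto the new strand, measured 12.30, 12.23 and 12.78 on the control arrays and 12.79, 12.80 and 12.93 on the Stau1 arrays. The groups did not overlap, by a margin of 0.0081 between control array 3 and Stau1 array 1, and the difference was 0.40 (SE 0.12, limma unadjusted p = 0.00653, adjusted p = 0.999). CLSPN, the checkpoint mediator claspin, was dim and detected on 4 arrays, with means of 5.34 ± 0.26 and 5.72 ± 0.18 (SD, n = 3) and an unadjusted limma p of 0.0377. TOP2A, the topoisomerase that untangles replicated DNA, averaged 10.74 ± 0.33 and 10.33 ± 0.15, a difference of -0.41 at an unadjusted limma p of 0.0158. The median difference of the 37 genes was 0.03 and 19 were higher with Stau1 (51.4%, beside 49.4% of all kept rows). Their array medians were -0.10, -0.08 and 0.08 in control and 0.03, 0.03 and -0.03 in Stau1 cells, so that control arrays 1 and 2 were again the lowest and control array 3 the highest. In the mitotic transcripts the medians were -0.02, -0.04 and 0.01, then -0.0087, 0.0068 and -0.08, with Stau1 array 3 the lowest.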

How the data were processed

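Total RNA was measured on 6 Illumina HumanWG-6_V3 BeadChip arrays, 3 per group, and samples were grouped by the transfection in their labels. The deposited table gives, per gene and array, a signal intensity that the authors exported from BeadStudio with no normalization. Beside each intensity the authors deposited a detection p-value against the negative control beads, a standard error (intensity units, taken over beads) and a bead number, a score per the file headers. Rows that average several probes (17 of the 46 genes) carry a combined detection p.

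From these, limma 3.58.1 in R 4.3.3 gave log2 values after normexp background correction (offset 16) and quantile normalization. Background levels were estimated through the detection p of the 30932 rows of 1 probe, and this restriction came after all rows had been tried. The filter required detection (p under 0.05) on 3 or more arrays and kept 35.1% of rows. The groups were compared with lmFit and eBayes with a variance trend, adjusted by Benjamini-Hochberg over the kept rows at 0.05. The methods' t-test, which the study states for immunoprecipitated RNA, was two-sided with equal variances. At an unadjusted p under 0.05 it gave 462 rows, none of them past 2-fold, and 0 rows after Benjamini-Hochberg. The 2-fold threshold is that of the study for total RNA, where it reports a few probes past it and names no test. That count was by probe, while rows here are by gene. The methods also name another normalization (variance stabilization and robust spline), so the counts are not like for like. Scripts were tested on simulated data.

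Genes given in full were the 5 higher and the 5 lower replication genes with the lowest unadjusted p, and RRM2 and GINS4. The members and lists were chosen with earlier results of these data known. Promoter windows came from RefSeq tables. A planned look at the Walker A stretch of the MCM proteins was not made, since no protein sequences were used here. No slide or scan information was used, so array batches were not examined. The figures were drawn with matplotlib 3.10.9. Alternatives tried were no background correction, background from all rows, an offset of 50, cyclic loess, median scaling, other filters, array weights, no variance trend, a replicate block, a 1.5-fold threshold and leaving out each array.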

Additional observations from a re-analysis of the deposited data

How the results depend on the processing

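No replication gene had an adjusted limma p under 0.05 under any alternative. The lowest was 0.236 with all arrays (POLE, with array weights) and 0.0973 with 1 left out (CDT1, without control array 3). The number at an unadjusted limma p under 0.05, 2 as reported, was 0 with median scaling, beside 1.72% of all kept rows. It was 1 without a variance trend, beside 4.04%, and 4 (9.3%) with array weights, beside 9.72%. With 1 array left out it was 0 to 5, beside 1.79% to 12.7% of all kept rows. The number whose groups did not overlap, also 2, was 0 with median scaling, beside 3.81% of all kept rows. With 1 array left out it was 3 to 15, beside 12.7% to 29.1%. With median scaling the genes' median difference was 0.128, but all kept rows were then shifted to 0.0679. Among the other replication genes, the count with an adjusted p under 0.05 was 0 to 1 with 1 array left out, the 1 being DNMT1 without control array 3, when 39 rows passed in all. PRIM2 reversed to 0.12 without control array 1, in a range of -0.454 to 0.12. The size of a difference also moved with the background step. With background from all rows it was 0.202 for POLE (0.35 as reported), 0.476 for CDT1 (0.356) and 0.111 for RFC1 (0.3). For PRIM2 it was then -0.0713 (-0.247). Causes were not tested, beyond fewer arrays where 1 was left out. With a replicate block the limma counts were 0 adjusted and 2 unadjusted (4.65%, beside 4.55% of all kept rows), the lowest adjusted p being 0.985. Same-numbered arrays correlated at 0.015, 0.26 and -0.14, and no pairing was taken from the numbers. Of the 43 differences, most of them near 0, the sign changed in 0 to 8 genes with all arrays (7 with median scaling, 8 with array weights) and in 4 to 14 with 1 array left out (14 without control array 1, 10 without control array 2). The t-test gave 0 genes at 1.5-fold as well. The spread over 3 arrays a group limited the precision, and the standard error of a difference was highest for PRIM2 (0.25) and RFC1 (0.20).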
